A study of Danio rerio with 6 samples.

Results

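The agouti gene asip2b and 9 genes of pigment cells were followed in the embryonic zebrafish eye after exposure to retinoic acid (RA). The genes were taken by symbol: a probe set, the group of short probes that together measure a transcript on the array, was included where its only gene symbol in the probe table was asip2b, tyr, tyrp1b, dct, pmela, oca2, slc24a5, slc45a2, mitfa or gch2. Of these 10 genes, 5 had such a probe set: asip2b, tyr, dct and mitfa with 1 each and gch2 with 2, which makes 6 of the 15555 probe sets tested. No probe set carried tyrp1b, pmela, oca2, slc24a5 or slc45a2 as its single symbol or by gene number, and these 5 genes were not analysed here. Eyes came from wild-type embryos of the outbred SciH strain, which were given either 0.3 µM all-trans RA or its carrier, 0.1% DMSO, between 48 and 75 hours post-fertilization (hpf). Embryos were frozen at the end of the treatment and their eyes dissected later. Each of the 6 Affymetrix arrays held RNA from 1 pool of 64 dissected eyes, and each of 3 clutches gave 1 DMSO pool and 1 RA pool. The labels number the replicates 1, 3 and 4 in each group. Arrays with the same number were taken here as 1 clutch, which the sources do not state. The study's methods name phenothiourea, an inhibitor of melanin synthesis, for embryos viewed as whole mounts, and do not say whether the embryos used for arrays received it.

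Pigment in the fish eye lies in the retinal pigment epithelium (RPE), which derives from the optic cup, and in melanophores, xanthophores and iridophores, which derive from the neural crest and gather around the eye. Melanin is made from tyrosine inside melanosomes: tyr encodes tyrosinase, the enzyme of the first step, dct and tyrp1b encode enzymes of later steps, pmela encodes the protein of the fibrils on which melanin is laid down, and oca2, slc24a5 and slc45a2 encode transporters of the melanosome and related membranes. The transcription factor gene mitfa is required for melanophores of the neural crest, while zebrafish without it still have a pigmented RPE. The enzyme encoded by gch2, a GTP cyclohydrolase, begins the synthesis of the yellow pteridines of xanthophores. Agouti proteins are secreted and block melanocortin receptors, through which melanocortins darken pigment cells. The gene asip2b, which is also known as agrp2, is known in zebrafish from the pineal gland.

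The signals are on a linear scale with a mean of 125 on every array after the lowest and highest 2% of probe sets are set aside, and the array medians lay between 39.5 and 43.5. Background was set at 13.2, which was the top signal among 87 controls that match no zebrafish transcript; a signal at or below it has no order. RA and DMSO pools were compared by limma on log2 signals over all 15555 probe sets, with the false discovery rate (FDR) held at 10%, and "passed" refers to this test. The tissue carried its defining transcripts: the RPE isomerase gene rpe65a gave mean signals (± SD of 3 pools) of 2721 ± 672 with DMSO and 2630 ± 177 with RA, and the cone transducin gene gnat2 gave 1701 ± 421 and 1673 ± 67.3. The epidermal keratin gene krt4 was also bright in every pool, at 1309 ± 23.9 and 1332 ± 24.4. For actin, the ratio of 3' to 5' signals, which grows as RNA is degraded or cDNA shortened, was 64.5, 20.2 and 12.0 with DMSO (clutches 1, 3 and 4) and 7.65, 11.7 and 5.30 with RA. Every DMSO ratio was above every RA ratio, so this measure and the treatment cannot be told apart. For gapdh the ratios overlapped, at 2.577, 1.645 and 1.476 with DMSO and 1.736, 1.747 and 1.319 with RA. The part of these ratios in the results was not tested.

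Of the 6 probe sets 1, that of asip2b, passed the test, in the lower direction; among all 15555 probe sets 131 passed, or 0.842%, and 37 of these, or 0.238%, were lower in RA-treated eyes. Its signal in DMSO eyes was 28.3 in clutch 1, 28.8 in clutch 3 and 21.6 in clutch 4. In RA-treated eyes it was 3.27, 4.19 and 4.54, below background in every clutch. The groups did not overlap, which together with a lower RA mean was found for 8.28% of all probe sets, and the gene exceeded background with DMSO in every clutch and with RA in none. The mean fell from 26.2 ± 4.02 to 4.00 ± 0.655 (SD, n = 3), and the fitted log2 difference was -2.72 with a standard error of 0.21 (adjusted p = 0.0071), a size that rests on signals below background and is no bound. Measured from background, the estimated fall in RA-treated eyes was at least 1.97-fold. This bound takes the mean of the log2 DMSO signals over background and makes no allowance for their error. The exact two-sided permutation test of 3 pools against 3 gave p = 0.1, the smallest it can give. In pooled eyes, fewer cells of a type and less RNA per cell cannot be told apart. With signals below background set to background, an alternative chosen after the data were examined, the log2 difference was -0.98, the size of this bound, and did not pass (adjusted p = 0.13), and the call was also lost without both arrays of clutch 3 (adjusted p = 0.18) or of clutch 4 (0.12).

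**Figure D1:**
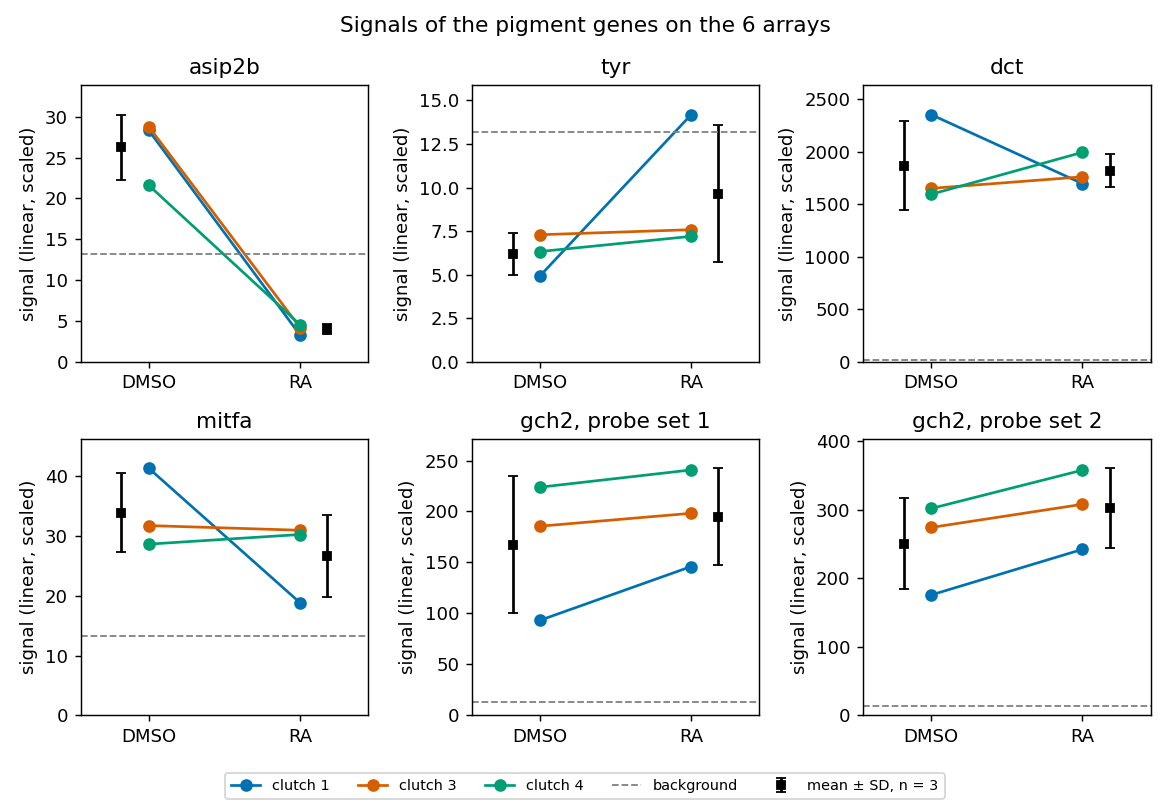
Linear signal (vertical axis, from 0) of each probe set in DMSO and RA-treated eyes; lines join the pools of a clutch, black squares and bars give the mean and SD of 3 pools, and the dashed line is the background of 13.2. The 3 DMSO signals of asip2b lie between 21.6 and 28.8 and its RA signals below background, while the groups overlap in every other panel.

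The pineal gland, the known site of asip2b, has its own transcripts, and these were read beside it. The pineal opsin gene exorh gave 7.47, 4.63 and 7.52 with DMSO and 8.22, 11.2 and 13.9 with RA, and exceeded background in the RA pool of clutch 4 alone. The homeobox gene otx5, which the pineal gland shares with the retina, gave 148 ± 18.5 and 153 ± 13.5 (adjusted p = 0.98). Of 7 measured genes of the pineal list, 1 passed, in the higher direction. Among all 15555 probe sets 131 passed, or 0.842%, and 94 of these were higher. Of the 7 genes, 2 lay at background on all arrays, where a fall could not be seen. The gene that passed was aanat2, for the enzyme that limits melatonin synthesis in pineal and retinal photoreceptors. It rose from 29.8 ± 3.12 to 71.1 ± 7.94 (log2 difference 1.26, adjusted p = 0.057). The study had reported aanat2 as higher with RA on these arrays. The brightest gene of the list was gngt1, for a rod transducin subunit, at 2170 ± 413 and 2274 ± 177 (0.08, adjusted p = 0.97). The summed signal of the 7 genes was 2773 to 3749 in DMSO and 3164 to 3477 in RA-treated eyes. Most of it came from gngt1 and from crx (762 ± 122 and 776 ± 33.7), which is also on the photoreceptor list. The sum therefore does not measure pineal tissue.

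The melanin enzyme genes gave no call. The probe set of dct, the gene of dopachrome tautomerase, was bright in every pool, with signals of 2355, 1652 and 1595 under DMSO (clutches 1, 3 and 4) and of 1697, 1762 and 1995 under RA. The groups overlapped, and the DMSO pool of clutch 1 lay above all 5 others. Within clutches the log2 difference was -0.47 in clutch 1, 0.09 in clutch 3 and 0.32 in clutch 4, so that dct was lower with RA in clutch 1 and higher in the others. Over all arrays the difference was -0.02 with a standard error of 0.21 (95% interval -0.53 to 0.49, or 0.69-fold to 1.41-fold, adjusted p = 0.996). Without the DMSO array of clutch 1, whose actin 3'/5' ratio was the highest, the difference was 0.16 (adjusted p = 0.85); the part of that ratio in the result was not tested.

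The signal of the single tyr probe set was at the limit of the array, and how well it reports the transcript was not tested. The probe set of tyr gave 4.92, 7.29 and 6.33 under DMSO and 14.2, 7.58 and 7.20 under RA. The RA pool of clutch 1 alone lay above background, by a small margin, and no fold is given. The difference did not pass (adjusted p = 0.71), and at this signal a difference in tyr was not detectable.

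The signal of mitfa was low and above background on all 6 arrays. Under DMSO it was 41.3, 31.7 and 28.6 (clutches 1, 3 and 4), and under RA 18.8, 30.9 and 30.2. The highest and the lowest of the 6 signals were the DMSO and the RA pool of clutch 1, and the 4 pools of clutches 3 and 4 lay between 28.6 and 31.7. The log2 difference was -1.13 in clutch 1, -0.04 in clutch 3 and 0.08 in clutch 4, and -0.36 over all arrays with a standard error of 0.27 (95% interval -1.01 to 0.28, adjusted p = 0.82). Without both arrays of clutch 1 it was 0.021 (adjusted p = 0.997).

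The pteridine gene gch2 had 2 probe sets, called first and second here by the order of their identifiers. The first gave 93.2, 186 and 224 under DMSO (clutches 1, 3 and 4) and 146, 198 and 241 under RA. The second gave 176, 274 and 302 under DMSO and 242, 308 and 358 under RA. Both were lowest in clutch 1 and highest in clutch 4 under either treatment, and both were higher with RA in all 3 clutches. Their log2 differences, 0.28 with a standard error of 0.38 (95% interval -0.63 to 1.20) and 0.29 with a standard error of 0.27 (-0.37 to 0.95), did not pass (adjusted p = 0.92 and 0.87). The highest DMSO signal was 2.4 times the lowest for the first probe set and 1.72 times for the second, against a fitted 1.22-fold difference between treatments for each, so the treatment difference was smaller than the spread between clutches. Without the DMSO array of clutch 1 the log2 differences were -0.093 and 0.055. That fit keeps the RA array of the clutch with the lowest signals. Without both arrays of clutch 1 they were 0.10 and 0.21. With the clutch as a block, the standard errors were 0.20 and 0.16 and neither passed (adjusted p = 0.71 and 0.64).

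**Figure D2:**
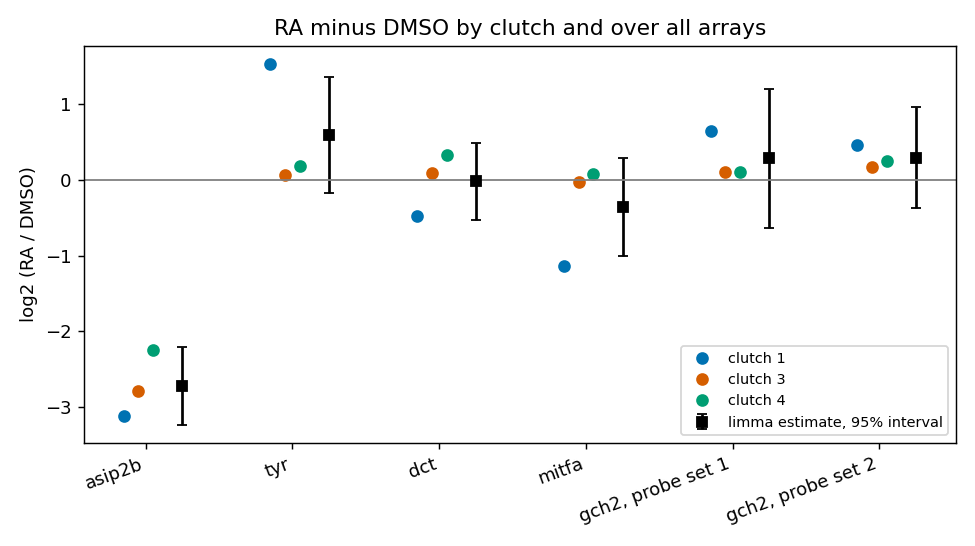
Log2 of RA over DMSO (vertical axis) for each probe set, as colored points for the 3 clutches and as a black square with its 95% interval for the limma estimate over all 6 arrays. For asip2b, whose RA signals are below background, all points lie between -3.12 and -2.25. The points and interval of tyr are not measured differences, since only its RA signal of clutch 1 exceeds background. For dct and mitfa clutch 1 lies below 0 and clutch 4 above it.

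The other 5 probe sets did not pass. As ratios of RA over DMSO, the 95% intervals were 0.69 to 1.41 for dct, 0.50 to 1.22 for mitfa and 0.77 to 1.94 for the second gch2 probe set, and a missed threshold does not show that these genes had equal levels. The median log2 difference of the 5 genes was -0.02, beside -0.02 for all 8793 genes, each by its brightest probe set. The median of the 5 is the value of dct alone, and the values of asip2b and tyr rest in part on signals below background. It therefore does not show that these genes as a group were unchanged.

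Genes with the array pattern most like that of asip2b were sought among 7779 probe sets with a single symbol that were above background on all arrays of at least 1 group. Likeness was the root mean square difference over the 6 arrays between log2 signals, each relative to its own mean. The nearest was hgd, for homogentisate dioxygenase, an enzyme of tyrosine breakdown, with a root mean square difference of 0.13. It gave 86.2, 91.4 and 82.0 under DMSO and 11.5, 13.1 and 13.2 under RA, where the last alone exceeded background. Then came ptgdsb.1, a prostaglandin D2 synthase gene (0.21), with 410 ± 131 under DMSO and 66.4 ± 10.2 under RA, and pvalb2, for the calcium buffer parvalbumin (0.32), with 506 ± 110 and 104 ± 22.4 (SD, n = 3). Their lower RA signals follow from the search, which picks genes with a step like that of asip2b, and are given as a description. The RA signals of asip2b lie below background, so neither its step nor the order of its RA arrays is measured, and these distances and ranks hold only for the signals as deposited.

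The same search was made for dct, the melanin enzyme gene above background, in place of a mean with tyr, tyrp1b and pmela. The nearest were atp1b2a, for a subunit of the sodium pump (0.04), rack1, for a scaffold protein of the ribosome (0.04), and fam133b (0.04). Each was highest in the DMSO pool of clutch 1, as dct was: rack1 gave 4498 there and 3016 to 3771 on the other 5 arrays. This shared peak follows from the search and is given as a description.

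**Figure D3:**
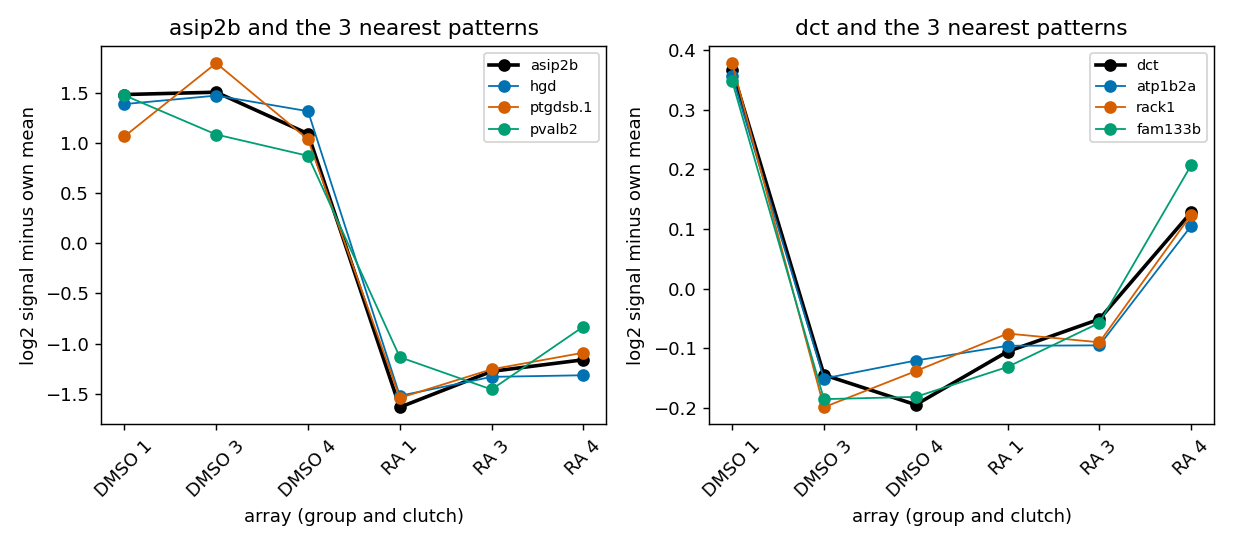
Log2 signal minus the gene's own mean over the 6 arrays (vertical axis) for asip2b and for dct, each with the 3 genes of nearest pattern, by array on the horizontal axis. The left panel steps down from the DMSO to the RA arrays; in the right panel, which spans a much narrower range, the DMSO pool of clutch 1 lies above the other 5 arrays.

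The other genes of the pigment pathways were read from lists, with each gene given by its probe set of highest mean signal. Of 41 other melanosome genes, 15 were measured and none passed; their median log2 difference was 0.00. The gene pmelb, the paralog of pmela and named outside the rule for that reason, gave 897 ± 53.9 under DMSO and 943 ± 14.7 under RA (log2 difference 0.07, adjusted p = 0.95). The tetraspanin gene tspan36 gave 910, 994 and 1065 in DMSO and 1384, 1258 and 1177 in RA-treated eyes (0.36, adjusted p = 0.60), without overlap. The share of all probe sets that were higher with RA without overlap was not counted, here or for the genes below. The gene ap3b1a, for a subunit of the adaptor that sorts proteins to melanosomes and lysosomes, gave 260, 128 and 83.8 in DMSO and 111, 110 and 96.5 in RA-treated eyes (-0.42, adjusted p = 0.88), again with the DMSO pool of clutch 1 above the others.

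The receptors on which agouti proteins act were not seen at this sensitivity. Of 11 measured genes of melanocortin and melanin-concentrating hormone signaling, 9 lay at background on all arrays, among them the melanocortin receptor genes mc1r, mc3r, mc4r, mc5ra and mc5rb and the precursor gene pomca. The receptor gene mchr1b exceeded background on 1 DMSO array. The remaining gene was cpe, for a carboxypeptidase that trims peptide hormones in many cell types, with 439 ± 20.9 under DMSO and 409 ± 31.8 under RA (log2 difference -0.10, adjusted p = 0.93). None of the 11 passed, and 2, both at background, had an unadjusted p under 0.05, beside 1362 of all 15555 probe sets.

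Of 17 measured genes of the neural crest and of pigment cell specification, 7 lay at background on all arrays. Among the 17, 1 passed, in the lower direction, beside 0.238% of all probe sets. This was ednrba, the endothelin receptor gene that zebrafish need for a full set of iridophores, with signals of 8.35, 8.56 and 9.05 in DMSO and 4.36, 2.74 and 3.31 in RA-treated eyes (adjusted p = 0.082); all 6 lie below background, and no fold is given. The neural crest transcript crestin gave 42.9, 56.6 and 18.7 in DMSO and 165, 81.1 and 109 in RA-treated eyes, higher in every clutch and without overlap (log2 difference 1.67 with a standard error of 0.47), and did not pass (adjusted p = 0.35). The proto-oncogene mycn gave 59.0 ± 7.93 and 38.1 ± 12.7 (-0.69, adjusted p = 0.60), and the histone deacetylase gene hdac1 gave 1286 ± 205 and 1251 ± 181 (-0.04, adjusted p = 0.99). The neural crest regulator sox10 gave 210 in the DMSO pool of clutch 1 and 97.8 to 117 on the other 5 arrays (adjusted p = 0.96). The melanophore receptor gene kita and the mitfa paralog mitfb lay at background throughout. Of the 17, 9 were above background on all arrays of a group, with a median log2 difference of -0.04.

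Beside gch2, 8 other genes of pteridines and xanthophores were measured, and none passed. The 6 above background on all arrays of a group had a median log2 difference of -0.36. Of the 8 genes, 2 were lower without overlap, beside 8.28% of all probe sets. Another 2, gchfr and csf1ra, were higher without overlap, but the signals of csf1ra lay at background and have no order. Among the genes above background, the largest difference was that of slc2a11b, a sugar transporter gene known from pigment cells of medaka. It gave 87.0, 69.9 and 52.5 in DMSO and 36.3, 32.2 and 33.9 in RA-treated eyes. It was lower with RA in every clutch, without overlap (0.50 times the DMSO level, 95% interval 0.34 to 0.73, adjusted p = 0.20). The gene gchfr, for a protein that binds and restrains GTP cyclohydrolase in mammals, was higher in every clutch, at 75.7 ± 21.5 and 139 ± 44.3 (log2 difference 0.87, adjusted p = 0.49). The gene pcbd1, for an enzyme that recycles the pteridine cofactor of tyrosine synthesis, gave 350 ± 86.0 and 234 ± 26.1 (-0.56, adjusted p = 0.57). The xanthophore receptor gene csf1ra lay at background on all arrays.

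Genes of purine synthesis supply the guanine of iridophores and are used by every dividing cell. They were listed with other genes of iridophores. Of these, mpv17 and slc25a16, which are not genes of purine synthesis, had log2 differences of 0.13 and -0.08. All 12 measured genes of this list were above background on all arrays of at least 1 group, 11 of them had a log2 difference below 0, and none passed. Their median log2 difference was -0.30, and 6 of the 12 were lower in RA-treated eyes without overlap, beside 8.28% of all probe sets. That share includes probe sets at background and, for some genes, more than 1 probe set, so the shares are not of like sets. The share of all genes with a log2 difference below 0 was not counted, and the list was not tested as a set. The gene atic, for the enzyme of the last steps to inosine monophosphate, gave 109, 142 and 108 in DMSO and 37.1, 62.4 and 59.7 in RA-treated eyes (-1.20 with a standard error of 0.26, adjusted p = 0.19). The gene gart, for an enzyme of 3 earlier steps, gave 63.5, 46.9 and 61.1 and then 31.7, 26.7 and 37.9 (-0.83, adjusted p = 0.28). The gene prps1a, for the synthase of the ribose precursor, gave 880 ± 49.3 and 730 ± 11.2 (-0.27, adjusted p = 0.72). The summed signal of the list was 2114 to 2427 under DMSO and 1706 to 1833 under RA.

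Of 11 measured RPE genes none passed, and those above background had a median log2 difference of 0.03. This median joins genes that differed in opposite directions. An unadjusted p under 0.05 was found for 3 of the 11, beside 1362 of all 15555 probe sets: rbp4 and stra6, higher with RA, and rlbp1a, lower. Signals of stra6 were 526 ± 23.4 and 787 ± 48.7 (0.58, adjusted p = 0.29), and those of rlbp1a 973 ± 59.7 and 714 ± 87.2 (-0.45, adjusted p = 0.53). The gene rpe65a, like dct, was highest in the DMSO pool of clutch 1: it gave 3495 there and 2297 to 2821 on the other 5 arrays (log2 difference -0.02, adjusted p = 0.996). The retinol carrier gene rbp4 gave 1025, 1248 and 933 in DMSO and 1661, 1787 and 1604 in RA-treated eyes (0.67, adjusted p = 0.31), without overlap. The gene pmp22b, for a membrane protein of myelin and epithelia, gave 271 ± 85.3 and 169 ± 34.7 (-0.65, adjusted p = 0.62). The summed signal of the RPE list was 7770 to 9601 in DMSO and 8486 to 9375 in RA-treated eyes, so the groups overlapped.

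**Figure D4:**
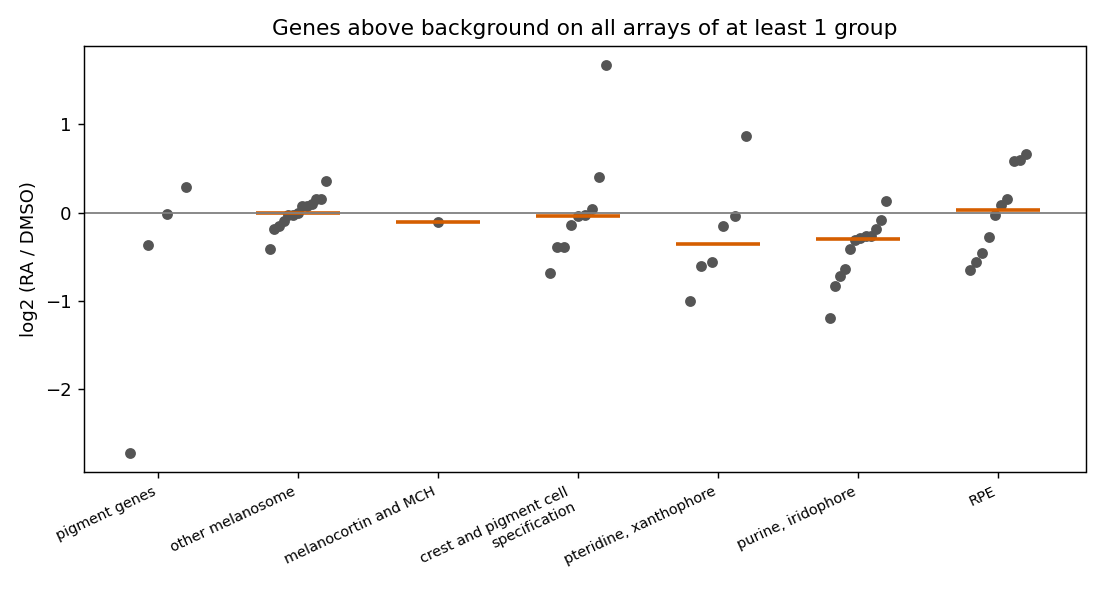
Log2 of RA over DMSO (vertical axis) for each gene above background on all arrays of at least 1 group: 4 of the 5 pigment genes, and 13, 1, 9, 6, 12 and 10 genes of the lists from left to right; orange lines are list medians. The point of asip2b at -2.72 rests on RA signals below background, and 11 of the 12 genes of the purine and iridophore list lie below 0.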

How the data were processed

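Probe set intensities were used as deposited by the authors: linear signals of 15617 probe sets on 6 Affymetrix Zebrafish Genome Arrays, scaled to equal trimmed means. The study's methods describe RMA values, which these are not; the software behind them is not given in the sources used here. They were taken to log2. With 62 control probe sets left out and 53 made for this array kept, limma 3.58.1 in R 4.3.3 (lmFit, eBayes, two-sided, Benjamini-Hochberg, 10% FDR) compared 3 RA with 3 DMSO arrays without the clutch. The methods say that clutches were split, and the replicate number was taken as the clutch. Deviations of arrays with the same number from their group means correlated at 0.16, 0.42 and 0.28 over 9791 probe sets above background. All of these were positive. The methods do not say that the study's own test was paired, and for that reason the clutch as a block was an alternative. Others were a variance trend, median centring, quantile normalization, adding 16 to the signal, a level filter, SAM with 20 relabelings, FDRs of 5% and 20%, leaving out arrays or clutches, and, added later, a floor at background. The code was tested on simulated data. Named were all members and the passing, the brightest and the 2 most different genes of each list. After their values were seen, pmelb, exorh, otx5, crx, stra6, rlbp1a, sox10, krt4, gnat2 and genes at background were added. The pattern search planned for the mean of tyr, tyrp1b, dct and pmela used dct alone. The members and lists were chosen with earlier results of these data known. Symbols were those of the array's probe table, in which 10802 probe sets had 1 symbol. Promoter and protein comparisons had been planned and were not made, and no sequence is shown. The number of arrays limits the precision.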

Additional observations from a re-analysis of the deposited data

How the results depend on the processing

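The log2 difference of asip2b was below 0 in all 19 alternatives, which is no separate support. The groups do not overlap, so leaving out arrays, a floor or an added constant could not reverse its sign. The block, the variance trend, the level filter, SAM and both FDRs keep the estimate of the comparison as reported. It passed in 16. Among these were the fits with any 1 array left out (highest adjusted p = 0.051), with the replicate block (adjusted p = 0.095) and with SAM (0.067). The count includes the FDR of 20%, a looser threshold on the fit as reported, which asip2b could not fail. It also includes the level filter, which asip2b cleared through its DMSO signals (mean 26.2, against 4.00 with RA). The count is therefore no measure of how firm the call is. With an array or a clutch left out the log2 difference of asip2b was -2.95 to -2.52, and 0 or 1 of the probe sets passed. With the floor at background, 0 passed and the difference was -0.98. Adding 16 to the signal, which shrinks differences of dim genes, gave -1.07 (adjusted p = 0.0065). None of the other 5 probe sets passed in any alternative. Leaving out arrays or clutches gave -0.19 to 0.21 for dct (0.16 without the DMSO array of clutch 1, 0.03 and 0.00 without the RA array of clutch 1 or 3, 0.21 without clutch 1), -0.59 to 0.021 for mitfa (0.021 without clutch 1) and -0.093 to 0.54 for the first gch2 probe set (-0.093 without the DMSO array of clutch 1), and 0.055 to 0.45 for the second. Over all probe sets, 131 passed in the comparison as reported, 45 with the replicate block, 274 with a variance trend, 232 after adding 16, 243 among probe sets with a mean above background, 73 and 291 at FDRs of 5% and 20%, and 16 to 117 with an array or a clutch left out. List medians were recomputed only with the mean of each gene's probe sets, median centring and quantile normalization. The median of the melanocortin list, -0.84 and mostly from signals at background, was -0.70 with the mean of probe sets. The other list medians moved in these alternatives by less than their spread over clutches. Signals at or below 13.2 limit what could be measured of tyr and of asip2b in RA-treated eyes.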

Other observations

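Other tissues of the dissected eye were read from 4 further lists. Of 17 measured epidermal genes none passed, with a summed signal of 7823 to 8964 in DMSO and 7433 to 8515 in RA-treated eyes. The genes named by rule were icn2 (1944 ± 258 and 1862 ± 91.9, SD, n = 3), anxa1c (431 ± 174 and 230 ± 44.7, adjusted p = 0.59) and agr1 (log2 difference 0.62, adjusted p = 0.63). The agr1 difference rests in part on signals below background, since the gene exceeded it on 1 DMSO array and on 3 RA arrays. None of 5 periocular mesenchyme genes passed, and all 5 had a log2 difference above 0. The share of all genes above 0 was not counted, and the list was not tested as a set. The gene foxc1a gave 235 ± 45.4 and 356 ± 43.4 (0.61, adjusted p = 0.49). The log2 difference was 0.34 for foxc1b and 0.18 for col1a1a, the brightest. None of 10 photoreceptor genes passed, with log2 differences of -0.11 for gngt2b, the brightest, 0.37 for gngt2a and 0.24 for gnat1. Of 4 lens genes, 1 passed, beside 0.842% of all probe sets. This was the crystallin gene cryaa, which rose from 306 ± 46.8 to 705 ± 80.5 (log2 difference 1.21, adjusted p = 0.082). The genes crybb1 and bfsp2 had log2 differences of 0.00 and 0.04.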
